A study of Mus musculus with 14 samples.

Results

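Expression of 10 tumour suppressor genes that human T-cell acute lymphoblastic leukaemia (T-ALL) loses by mutation or deletion was followed through 14 RNA sequencing libraries of mouse leukaemias. They are Ezh2, Suz12, Eed, Kdm6a, Phf6, Dnmt3a, Fbxw7, Cnot3, Nf1 and Ptpn2. The genes were taken by symbol, with earlier results of these data known, and all 10 were found among the 12421 genes of the count table. All 10 also passed the filter on low counts in every test.

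The leukaemias belong to the VTL model, in which Lmo2, a transcription factor partner that drives human T-ALL, is the inducing oncogene. The 8 tumours fall into 3 classes by their relation to Lmo2. Independent tumours (VTL-33, VTL-44 and VTL-81) and evolving tumours (VTL-25, VTL-153 and VTL-21) each had 1 library from mice fed doxycycline (Dox) at 600 mg/kg of food and 1 from mice without it. Dependent tumours (VTL-19 and VTL-24) had 1 library each, from mice without Dox, so their response to Dox cannot be given; their values are given in that order. Every leukaemia began as thymocytes injected into irradiated F1 mice of the C57BL/6-Ly5.1 and FVB strains. Frozen leukaemia cells were then transplanted into C57BL/6 mice without Rag1, which make no mature T or B cells of their own but keep myeloid, erythroid and stromal cells. The cells sequenced were sorted from the spleens of these mice by carrying both CD45.1 and CD45.2. The promoter that drives Lmo2 and the ages of the mice are not given in the sources used here. Each tumour number is a separate leukaemia, so n counts tumours. In the class tests p-values measure the spread between tumours. In the Dox tests, which pair the libraries of a tumour, they measure the spread of the paired differences, shared by both classes.

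The genes act at 3 levels. EZH2, SUZ12 and EED form the core of Polycomb repressive complex 2 (PRC2), which methylates lysine 27 of histone H3 and silences genes; KDM6A removes that mark, PHF6 is a chromatin reader that binds the NuRD repressor complex, and DNMT3A adds new methyl groups to DNA. FBXW7 marks proteins such as NOTCH1 and MYC for destruction and CNOT3 belongs to the complex that shortens the poly(A) tails of mRNAs, so both govern turnover. NF1 switches RAS off, and PTPN2 is a phosphatase that switches off JAK kinases and STAT factors. In T-ALL they are lost by mutation or deletion, and counts per gene do not show mutations.

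No member was absent or close to absent in any tumour. The lowest read count of any member in any library was 567, for Fbxw7, and the lowest level relative to other tumours was that of Kdm6a in the independent tumours VTL-33 and VTL-81. None of the 10 passed edgeR's quasi-likelihood test in any of 7 comparisons, with p-values adjusted over all genes by the Benjamini-Hochberg method at a threshold of 0.05, beside 0.0% to 2.13% of all genes. Suz12, Nf1 and Kdm6a were higher, and Ezh2, Ptpn2 and Cnot3 lower, with Dox in each of the 3 evolving tumours, as were 17.3% of all genes in the first direction and 17.6% in the second. Without Dox, Phf6, Ezh2, Ptpn2 and Kdm6a lay lower in every independent than in every dependent tumour, as did 13.2% of all genes, and Dnmt3a lay higher, as did 14.4%. Ezh2 lay lower in every independent than in every evolving tumour, as did 12.1% of all genes, and Nf1 and Dnmt3a lay higher, as did 11.4%. DESeq2, run as an alternative, called 3 differences between classes: that of Phf6 between independent and dependent tumours, and those of Ezh2 and Dnmt3a between independent and evolving tumours. It called 6.47% of all genes in the first of these comparisons and 8.73% in the second.

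Library totals ran from 18214415 to 24048281 counts. Lmo2 stood at 0.198 to 8.46 CPM (read counts scaled to library size) with Dox and at 9.28 to 708 CPM without Dox, and the library with Dox held less of it in all 6 tumours that had both. All 11 T cell markers of a fixed list were measured, and summed to between 3592 and 6246 CPM in every library. Markers of other cell types were high in a few libraries, although the sort takes cells that carry both CD45 forms and the hosts make no B cells. VTL-21 with Dox held 6407 CPM of the 4 measured of 10 B cell markers, against 71.3 to 807 CPM elsewhere. VTL-81 with Dox held 2197 CPM and VTL-44 held 839 CPM with Dox and 1556 CPM without Dox of 12 myeloid markers, against 19.1 to 240.3 CPM elsewhere. The 5 measured of 10 stromal markers summed to 1268 CPM in VTL-81 with Dox and 1091 CPM in VTL-33 with Dox, against 190.0 to 759.9 CPM elsewhere. The 7 measured of 11 erythroid markers summed to 185 CPM in VTL-21 with Dox and 142 CPM in VTL-44 with Dox, against 0.0935 to 34.1 CPM elsewhere. Whether other cells or the leukaemia gave these reads, and their part in the results, was not tested. In bulk samples, moreover, fewer cells of a type and less RNA per cell cannot be told apart.

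Per kb of exon, with all annotated exons of a gene joined, 2 subunits of the PRC2 core stood highest. This length is not that of a single transcript, and the order of the members depends on it. The median over 14 libraries was 68.7 CPM per kb of exon for Suz12 and 64.6 CPM per kb for Ezh2, the highest of the 10. Eed, the third core subunit, had 22.3 CPM per kb, near Ptpn2 with 22.0 and Phf6 with 18.2 CPM per kb. Kdm6a had 16.9, Cnot3 15.6 and Dnmt3a 14.3 CPM per kb. Fbxw7, with 5.82 CPM per kb, and Nf1, with 3.66 CPM per kb, were lowest.

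The members differed in how much they varied. The highest library divided by the lowest gave 1.38 for Cnot3, 1.41 for Eed, 1.53 for Dnmt3a, 1.64 for Suz12 and 1.66 for Ptpn2. The ratio was 2.15 for Ezh2, 2.22 for Phf6, 2.44 for Nf1, 2.5 for Fbxw7 and 2.88 for Kdm6a. The members' median ratio was 1.91, beside a median of 2.47 over 12407 genes. Of all genes, 98.3% had a larger ratio than Cnot3 and 42.9% a larger ratio than Kdm6a.

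**Figure D1:**
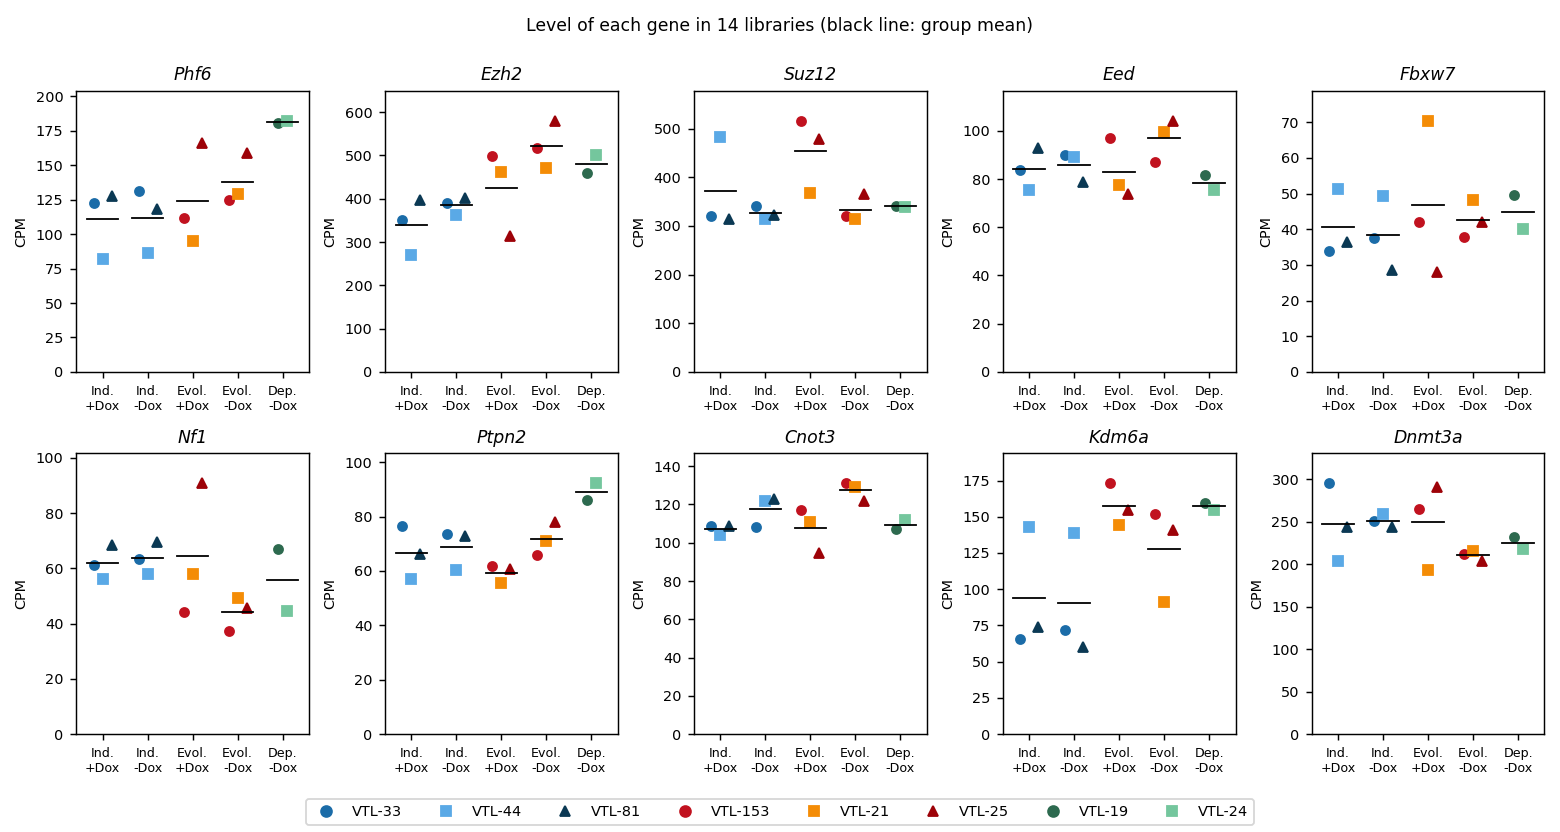
CPM (TMM-scaled) of the 10 genes, 1 panel per gene with its own axis from 0, by class and Dox state; points are libraries coloured by tumour and black lines are group means. Kdm6a separates VTL-33 and VTL-81 (60.1 to 74.1 CPM) from all other libraries (90.9 to 173 CPM), while Cnot3 and Eed stay within narrow bands.

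Promoter sequences were looked up in RefSeq (build GRCm38.p6, 250 bases before to 50 bases after each start site), where 8 of the 10 genes had an entry. The windows of 3 genes are shown, since the results turn on them: Ezh2 and Suz12 encode partners of 1 complex but were on opposite sides of 0 with Dox in evolving tumours, and Kdm6a was the member with the lowest single tumours. Each is the 250 bases before the start site, 5′ to 3′ on the gene's own strand, at chr6:47595031-47595280 (minus strand) for Ezh2, chr11:79992856-79993105 (plus strand) for Suz12 and chrX:18162325-18162574 (plus strand) for Kdm6a. Capitals mark matches to any of 4 motifs, each searched on both strands. The motif TGGGAA is the core bound by Ikaros. The motif GCGGGAA is one form of the E2F site. The motif CANNTG is the E-box. The motif AGATAA is a form of the GATA site.
Ezh2: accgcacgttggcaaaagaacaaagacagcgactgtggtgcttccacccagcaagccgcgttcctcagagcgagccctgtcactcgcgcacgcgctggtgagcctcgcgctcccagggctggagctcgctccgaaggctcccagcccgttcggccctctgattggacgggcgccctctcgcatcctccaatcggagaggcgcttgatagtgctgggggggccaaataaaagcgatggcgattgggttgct
Suz12: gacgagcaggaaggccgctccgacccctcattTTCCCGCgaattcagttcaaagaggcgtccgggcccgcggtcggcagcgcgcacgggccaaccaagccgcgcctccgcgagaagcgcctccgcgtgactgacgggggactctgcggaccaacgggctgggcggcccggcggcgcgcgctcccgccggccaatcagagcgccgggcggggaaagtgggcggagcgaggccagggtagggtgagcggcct
Kdm6a: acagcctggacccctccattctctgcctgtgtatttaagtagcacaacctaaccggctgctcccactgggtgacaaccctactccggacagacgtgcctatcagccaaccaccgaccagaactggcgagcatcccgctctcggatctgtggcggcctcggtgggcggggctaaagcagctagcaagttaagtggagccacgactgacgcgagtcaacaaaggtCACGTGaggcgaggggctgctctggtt

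The Ezh2 window held none of the 4 motifs. The Suz12 window held 1 E2F match, on the opposite strand, whose first base lies at −218 from the start site. An E2F match occurs in 4.6% of 32851 RefSeq windows of the same length. The Kdm6a window held 1 E-box match at −27, a motif present in 72.3% of all windows. All 3 windows were rich in CpG, with 31, 41 and 21 CpG in 300 bases for Ezh2, Suz12 and Kdm6a, against a median of 7 over all windows. A match is a description of letters and not evidence of binding.

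Of the PRC2 core, Ezh2, the catalytic methyltransferase, lies on chromosome 6 (mm10, 47530139 to 47595341). In evolving tumours it had 313, 499 and 462 CPM with Dox in VTL-25, VTL-153 and VTL-21, against 579, 518 and 469.9 CPM without Dox. Independent tumours had 351, 269 and 396 CPM with Dox in VTL-33, VTL-44 and VTL-81, against 389.9, 363 and 402 CPM without Dox. The dependent tumours had 460.1 CPM in VTL-19 and 502 CPM in VTL-24. Ezh2 was thus lower with Dox in all 6 tumours, by a wide margin in VTL-25 and VTL-44 and by little in the other 4. In both classes the groups with and without Dox overlapped. Of all genes, 17.6% were lower in all 3 evolving tumours and 8.27% in all 3 independent tumours. The share lower in all 6 was not counted.

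Without Dox the independent class did not overlap the others for Ezh2: every independent tumour was below every evolving and every dependent tumour. The evolving and dependent tumours overlapped. The means were 385 ± 20 CPM in independent tumours (SD, n = 3), 522 ± 54.6 CPM in evolving tumours (SD, n = 3) and 481 ± 29.5 CPM in dependent tumours (SD, n = 2). Independent minus evolving, the log2 difference was −0.44 (SE 0.12, adjusted p = 0.162 by edgeR). DESeq2 gave the same difference with an adjusted p of 0.00713, and over all alternatives the adjusted p ran from 0.00713 to 0.453. Independent minus dependent, it was −0.32 (SE 0.14, adjusted p = 0.381 by edgeR). With Dox, independent minus evolving, the difference was −0.34 (SE 0.24, adjusted p = 0.974 by edgeR), and there the groups overlapped, since VTL-25 lay among the independent tumours. That value was −0.17 without VTL-44, −0.18 without VTL-153 and −0.52 without VTL-25.

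For Dox in evolving tumours the Ezh2 estimate was −0.32 on the log2 scale (SE 0.20, adjusted p = 0.51 by edgeR). It rested on VTL-25, where Ezh2 was 0.89 lower on the log2 scale; without that tumour the estimate was −0.04, and without VTL-21 it was −0.49. In independent tumours it was −0.20 (SE 0.20, adjusted p = 1 by edgeR), and −0.09 without VTL-44. The summed level of 20 replication and mitosis genes moved along in VTL-25, with 7616 CPM with Dox and 9954 CPM without Dox. In VTL-44 it went the other way, with 8316 CPM with Dox and 6339 CPM without Dox. The part of proliferation in the Ezh2 values was not tested.

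Suz12, the subunit that holds PRC2 together, lies on chromosome 11 (79993106 to 80034123). It had 479, 515 and 368 CPM with Dox in VTL-25, VTL-153 and VTL-21, against 365, 321 and 315 CPM without Dox. All 3 libraries with Dox were above all 3 without. The independent class had 321, 483 and 314 CPM with Dox in VTL-33, VTL-44 and VTL-81, against 341, 314 and 323 CPM without Dox, so VTL-44 alone stood high. The dependent tumours had 341 and 339 CPM. Means in evolving tumours were 454 ± 76.9 CPM with Dox and 334 ± 27.3 CPM without Dox (SD, n = 3 each), a log2 difference of 0.43 (SE 0.18, adjusted p = 0.299 by edgeR). Libraries without Dox from all 8 tumours lay between 314 and 365 CPM, so no class differed by more than 0.06 on the log2 scale in either direction.

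Eed, which binds the methylated histone tail and stimulates EZH2, lies on chromosome 7 (89954654 to 89980983). It ranged from 73.9 to 104 CPM. Without Dox it had 104, 87.1 and 99.7 CPM in the evolving tumours VTL-25, VTL-153 and VTL-21, against 81.5 and 75.5 CPM in the dependent tumours. These groups did not overlap, and the log2 difference was 0.31 (SE 0.13, adjusted p = 1 by edgeR). With Dox, evolving tumours had 73.9, 97.2 and 77.5 CPM, higher than without Dox in VTL-153 and lower in the other 2.

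Of 10 further PRC2 genes, 8 were tested, and none passed in any comparison by edgeR. With Dox in evolving tumours 2 of the 8 had an unadjusted p under 0.05, beside 16.7% of all genes, and the list's median was 0.09 on the log2 scale against 0.00 for all genes. These were Mtf2 and Jarid2, both proteins that help bring PRC2 to its targets, named after their values were seen. Mtf2 had 1046, 420 and 389 CPM with Dox in VTL-25, VTL-153 and VTL-21, against 309, 258 and 281 CPM without Dox (log2 difference 0.97, SE 0.25, adjusted p = 0.114 by edgeR), and the groups did not overlap. Jarid2 had 73.9, 72.8 and 111 CPM with Dox in these tumours, against 92.5, 116 and 188 CPM without Dox (log2 difference −0.58, SE 0.16, adjusted p = 0.123 by edgeR), lower in each tumour but with overlapping groups. Ezh1, which can replace EZH2 as the enzyme, stayed between 24.6 and 45.5 CPM in all libraries. None of 19 genes of Polycomb repressive complex 1, which acts beside PRC2, passed in any comparison.

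Kdm6a, the X-linked demethylase that opposes PRC2, lies on the X chromosome (18162575 to 18279936) and was the most variable member. In independent tumours it had 65.6, 143 and 74.1 CPM with Dox in VTL-33, VTL-44 and VTL-81, against 71.5, 139 and 60.1 CPM without Dox. In evolving tumours it had 155, 173 and 144 CPM with Dox in VTL-25, VTL-153 and VTL-21, against 141, 152 and 90.9 CPM without Dox. The dependent tumours had 159.7 and 155 CPM. The 4 libraries of VTL-33 and VTL-81 were the lowest of all 14, while VTL-44, the other independent tumour, lay with the remaining classes.

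A gene was called low in a single tumour where every library of that tumour was below 0.5 times the median CPM of the other tumours' libraries. Kdm6a in VTL-33 was the only such case among the members, 1 of 10, beside 24.6% of all genes. Its libraries stood at 45.7% and 49.7% of the median of 144 CPM. VTL-81 fell just outside, at 41.8% and 51.5% of the same median. The next lowest members were Phf6 in VTL-44 (63.9% and 67.2%), Nf1 in VTL-153 (62.4% and 74.2%) and Ezh2 in VTL-44 (58.4% and 78.7%). With the limit at 0.667 times the median, Kdm6a was low in VTL-33 and VTL-81 and no other member was added, beside 38.2% of all genes. No member was above 2 times the median in a single tumour, beside 22.1% of all genes.

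In mouse, Kdm6a escapes X inactivation and has a Y-linked relative, Uty. Xist, the RNA of the inactive X chromosome, had 11.2 CPM with Dox and 4.34 CPM without Dox in VTL-33. It had 47.1 CPM with Dox and 8.80 CPM without Dox in VTL-81. In the other 10 libraries Xist lay between 759 and 2964 CPM, and the library at 759 CPM was VTL-21 without Dox, which held the lowest Kdm6a of those 10. Uty was present in VTL-81, with 41.0 CPM with Dox and 24.4 CPM without Dox. It had 0 counts in both libraries of VTL-33, which allows up to 0.129 CPM (3 counts) for counting error, and was at most 1.74 CPM elsewhere. The 2 tumours with low Xist were thus the 2 with low Kdm6a, and 1 of them expressed Y-linked genes.

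Other genes on the X chromosome, chosen after values were seen, overlapped between these 2 tumours and the rest, some of them through few libraries. Eif2s3x, which also escapes inactivation, had 44.4 to 60.1 CPM in VTL-33 and VTL-81, against 60.0 to 93.1 CPM in the other libraries. Kdm5c, a demethylase of histone H3 lysine 4 that escapes, had 156 to 173 CPM in those tumours, against 114 to 296 CPM elsewhere. The other 3 escape genes overlapped as well: Ddx3x had 779 to 1228 CPM against 968 to 2152 CPM, Pbdc1 had 52.5 to 59.7 CPM against 52.1 to 102 CPM, and 5530601H04Rik had 14.8 to 19.5 CPM against 14 to 41.9 CPM. For Eif2s3x the overlap was 60.1 CPM in VTL-81 without Dox against 60.0 CPM in VTL-21 without Dox. Kdm5c and Pbdc1 overlapped only with VTL-44, and the remaining libraries had 189.8 to 296 CPM and 63.8 to 102 CPM. The overlap of 5530601H04Rik was with VTL-44 with Dox and VTL-21 without Dox. Ddx3x overlapped more widely, with libraries of VTL-19, VTL-21, VTL-25 and VTL-153. The highest value of VTL-33 and VTL-81 lay below the highest of the rest for all 5. Hprt, which lies near Phf6 and does not escape, had 144 to 174 CPM there, against 138 to 194 CPM elsewhere. Under the limit of 0.667 times the median, 8.27% of 387 X-linked genes were low in VTL-33, against 7.48% of 12001 autosomal genes. In VTL-81 the shares were 9.56% of X-linked genes and 7.12% of autosomal genes. VTL-44, with high Xist, had 11.6% of X-linked genes and 10% of autosomal genes, and in the other 5 tumours, which ran from 2.07% to 14% of X-linked genes, the X-linked share was below the autosomal one. The share of 14% is that of VTL-24, which has 1 library. The part of sex chromosome content in the Kdm6a values was not tested.

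**Figure D2:**
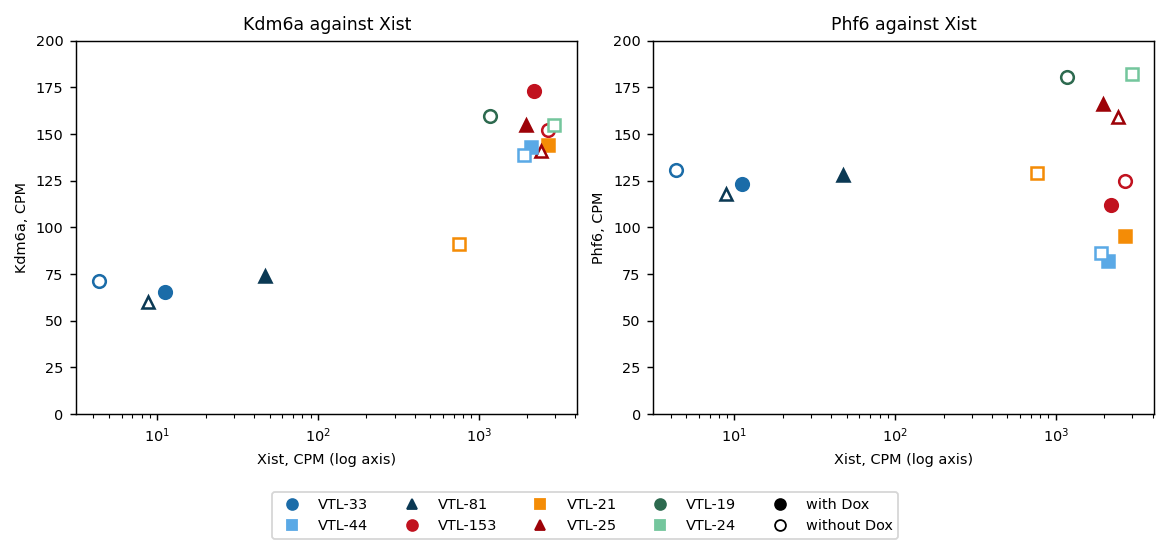
Kdm6a and Phf6 (CPM, linear axis from 0) against Xist (CPM, log axis) in 14 libraries, each point a library coloured by tumour. The 4 libraries of VTL-33 and VTL-81, at 47.1 CPM of Xist or less, hold the 4 lowest Kdm6a values, whereas their Phf6 values of 118 to 131 CPM lie in the middle of the range.

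Independent minus evolving, the Kdm6a log2 difference was −0.74 with Dox (SE 0.32, adjusted p = 0.974 by edgeR) and −0.50 without Dox (SE 0.34, adjusted p = 0.518 by edgeR). Independent minus dependent it was −0.80 (SE 0.37, adjusted p = 0.415 by edgeR). These values depended on single tumours: without VTL-44 they were −1.16, −0.96 and −1.26, and the difference without Dox from evolving tumours was −0.28 without VTL-81. For Dox in evolving tumours the log2 difference was 0.33 (SE 0.16, adjusted p = 0.357 by edgeR), and 0.14 without VTL-21. That tumour's library with Dox is the one with the B cell markers.

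The paralog Kdm6b stayed between 97.2 and 173 CPM in all libraries. A list of 11 genes held partners of KDM6A in the KMT2C and KMT2D complexes and its relatives Kdm6b and Uty. Of these, 10 were tested between classes with Dox and all 11 otherwise. None passed in any comparison by edgeR, and the list's medians lay between −0.21 and 0.09 on the log2 scale.

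Phf6 lies on the X chromosome (52912266 to 52956943). Without Dox it had 131, 86.3 and 118 CPM in the independent tumours VTL-33, VTL-44 and VTL-81, 159, 125 and 129 CPM in the evolving tumours VTL-25, VTL-153 and VTL-21, and 180.5 and 182 CPM in the dependent tumours. Both dependent tumours were above all 12 other libraries, and VTL-44 was lowest with or without Dox. How many of all genes had both dependent tumours above all other libraries was not counted. With Dox Phf6 had 123, 82.0 and 128 CPM in independent tumours and 166, 112 and 95.2 CPM in evolving tumours. Means without Dox were 112 ± 22.9 CPM in independent tumours (SD, n = 3), 138 ± 18.4 CPM in evolving tumours (SD, n = 3) and 181 ± 1.10 CPM in dependent tumours (SD, n = 2).

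Independent minus dependent, the Phf6 log2 difference was −0.70 (SE 0.20, adjusted p = 0.208 by edgeR), the smallest p of the members in that comparison. DESeq2 gave −0.71 with an adjusted p of 0.0323, and leaving out VTL-44 gave −0.54. Evolving minus dependent it was −0.40 (SE 0.20, adjusted p = 1 by edgeR). Both comparisons rest on 2 dependent tumours. Dox differences were small, at −0.18 in evolving tumours (SE 0.14) and −0.02 in independent tumours (SE 0.14), with VTL-21 the lowest at −0.44.

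Of the 13 genes on the list of NuRD and ribosomal gene partners of PHF6, 1 passed for Dox in evolving tumours, beside 2.13% of all genes, and 0 in the other comparisons. Mta3, a NuRD subunit, fell with Dox in evolving tumours (log2 difference −1.84, SE 0.19, adjusted p = 0.0126 by edgeR). It had 128, 131 and 94.7 CPM with Dox in VTL-25, VTL-153 and VTL-21, against 530.3, 367 and 373 CPM without Dox. In independent tumours it was low in both states, with 89.0, 155 and 51.1 CPM with Dox in VTL-33, VTL-44 and VTL-81, against 118, 128 and 60.2 CPM without Dox. Dependent tumours had 346 and 362 CPM. The difference between the Dox responses, independent minus evolving, was 1.72 (SE 0.26, adjusted p = 0.0845 by edgeR) and did not pass. The call for Mta3 was lost without VTL-25 (adjusted p = 0.0584 by edgeR), without VTL-21 and VTL-81 together (adjusted p = 0.0521) and without the tumour block (adjusted p = 0.073), over a range of adjusted p from 9.64e-17 to 0.073.

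Dnmt3a, the de novo DNA methyltransferase, lies on chromosome 12 (3806007 to 3914443). Without Dox it had 251, 259 and 244 CPM in the independent tumours VTL-33, VTL-44 and VTL-81, 204, 212 and 215 CPM in the evolving tumours VTL-25, VTL-153 and VTL-21, and 232 and 218 CPM in the dependent tumours. The independent tumours were above all others, by a small margin. The means were 251 ± 7.04 CPM in independent tumours and 211 ± 5.54 CPM in evolving tumours (SD, n = 3 each), a log2 difference of 0.26 (SE 0.10, adjusted p = 0.26 by edgeR). DESeq2 gave an adjusted p of 0.0208 for it. With Dox the order was gone: independent tumours had 295, 204 and 244 CPM and evolving tumours 291, 265 and 193 CPM, and the log2 difference was −0.02 (SE 0.23).

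Dnmt3b, the other de novo enzyme, singled out after its values were seen, had 14.1, 18.7 and 13.3 CPM with Dox in VTL-25, VTL-153 and VTL-21, against 50.4, 33.6 and 64.4 CPM without Dox. The groups did not overlap, and the log2 difference was −1.66 (SE 0.31, adjusted p = 0.0537 by edgeR). DESeq2 gave 5.2e-05 and the range over alternatives was 5.2e-05 to 0.21. Of 14 other genes of DNA methylation and demethylation 13 were tested, and none passed in any comparison by edgeR. With Dox in evolving tumours 4 of the 13 had an unadjusted p under 0.05, beside 16.7% of all genes.

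Fbxw7, the substrate receptor of a ubiquitin ligase of the SCF type, lies on chromosome 3 (84815268 to 84979198). In evolving tumours it had 28.1, 42.0 and 70.3 CPM with Dox in VTL-25, VTL-153 and VTL-21, against 42.0, 37.7 and 48.3 CPM without Dox. The lowest and the highest of all 14 libraries were thus both evolving tumours with Dox, and the highest was VTL-21, which carries the B cell markers. Independent tumours had 33.8, 51.4 and 36.4 CPM with Dox in VTL-33, VTL-44 and VTL-81, against 37.6, 49.3 and 28.5 CPM without Dox. In dependent tumours it had 49.7 and 40.0 CPM. Every log2 estimate over the 7 comparisons lay between −0.22 and 0.09, with SEs of 0.22 to 0.36.

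Of 17 other SCF subunits and FBXW7 substrates, 14 were tested for Dox and 15 between classes without Dox, and none passed by edgeR. Myc, a substrate and a driver of T-ALL, had a log2 difference of 0.32 with Dox in evolving tumours (SE 0.36, adjusted p = 0.74 by edgeR) and of −0.60 in independent tumours (SE 0.36, adjusted p = 1 by edgeR). Myc had 201, 144 and 168 CPM with Dox in VTL-25, VTL-153 and VTL-21, against 103, 138 and 173 CPM without Dox. Independent tumours had 289.8, 30.5 and 219 CPM with Dox in VTL-33, VTL-44 and VTL-81, against 300.2, 97.9 and 239 CPM without Dox. The wide gaps were thus those of VTL-25 and VTL-44, and the other pairs differed little. The levels measured are those of RNA, and FBXW7 acts on protein.

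Cnot3, a subunit of the CCR4-NOT deadenylase, lies on chromosome 7 (3645268 to 3661109) and was the steadiest member. In evolving tumours it had 94.6, 117 and 111 CPM with Dox in VTL-25, VTL-153 and VTL-21, against 122, 131 and 129 CPM without Dox. The groups did not overlap. Means were 108 ± 11.6 CPM with Dox and 127 ± 4.65 CPM without Dox (SD, n = 3 each), a log2 difference of −0.25 (SE 0.12, adjusted p = 0.365 by edgeR). The independent class had 109, 104 and 109 CPM with Dox in VTL-33, VTL-44 and VTL-81, against 108, 122 and 123 CPM without Dox (log2 difference −0.13, SE 0.12, adjusted p = 1 by edgeR). The value was −0.08 without VTL-44 and −0.21 without VTL-33. Dependent tumours had 107 and 112 CPM. Of 15 other CCR4-NOT genes and associated factors 14 were tested and none passed by edgeR. Their median for Dox in evolving tumours was 0.19 on the log2 scale, against 0.00 for all genes.

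Nf1, the RAS GTPase-activating protein, lies on chromosome 11 (79339693 to 79581612). In evolving tumours it had 90.7, 44.2 and 58.0 CPM with Dox in VTL-25, VTL-153 and VTL-21, against 45.6, 37.2 and 49.3 CPM without Dox. VTL-25 with Dox was the highest of all 14 libraries, and the groups overlapped. In independent tumours it had 61.1, 56.0 and 68.6 CPM with Dox in VTL-33, VTL-44 and VTL-81, against 63.2, 58.1 and 69.5 CPM without Dox, so pairs hardly differed. The dependent tumours had 66.9 CPM in VTL-19 and 44.7 CPM in VTL-24.

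For Dox in evolving tumours the Nf1 log2 difference was 0.49 (SE 0.18, adjusted p = 0.228 by edgeR), the smallest p of the members. Leaving out VTL-25 brought it to 0.25. In independent tumours it was −0.04 (SE 0.18, adjusted p = 1 by edgeR). The difference between those responses, independent minus evolving, was −0.53 (SE 0.25, adjusted p = 0.581 by edgeR), and −0.29 without VTL-25. Without Dox, Nf1 was higher in independent tumours, at 63.6 ± 5.74 CPM, than in evolving tumours, at 44 ± 6.18 CPM (SD, n = 3 each), with no overlap. That log2 difference was 0.53 (SE 0.19, adjusted p = 0.239 by edgeR).

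Nf1 and Suz12 are neighbours on chromosome 11, and in human cancers they can be lost by a single deletion. In VTL-153, the tumour with the least Nf1, Suz12 had 515 CPM with Dox and 321 CPM without Dox, so the 2 genes were not low together. Of 18 genes listed beside them 11 were measured, and none passed in any comparison by edgeR. Of 18 other RAS GAPs and RAS brakes 16 were tested and none passed. Their median for the difference of Dox responses was 0.32 on the log2 scale against 0.00 for all genes, and that for independent minus evolving tumours with Dox was 0.32 against −0.01.

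Ptpn2 lies on chromosome 18 (67665511 to 67724595). In evolving tumours it had 60.6, 61.8 and 55.5 CPM with Dox in VTL-25, VTL-153 and VTL-21, against 78.1, 66.0 and 71.2 CPM without Dox. The groups did not overlap. Independent tumours had 76.7, 57.1 and 66.1 CPM with Dox in VTL-33, VTL-44 and VTL-81, against 73.6, 60.4 and 73.0 CPM without Dox. The dependent tumours, with 86.0 and 92.2 CPM, were above all other libraries. The share of all genes with this pattern was not counted. For Dox in evolving tumours the log2 difference was −0.27 (SE 0.12, adjusted p = 0.338 by edgeR), and its difference from that in independent tumours was 0.22, independent minus evolving (SE 0.18, adjusted p = 0.817 by edgeR).

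Without Dox, independent minus dependent, the Ptpn2 log2 difference was −0.37 (SE 0.14, adjusted p = 0.336 by edgeR). Evolving minus dependent it was −0.31 (SE 0.14, adjusted p = 1 by edgeR). These comparisons share the dependent tumours. Of 15 other phosphatases and brakes of JAK and SRC kinases 13 were tested, and none passed in any comparison by edgeR. The paralog Ptpn1 stayed between 101 and 195 CPM, with both VTL-44 libraries highest.

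Read across the 10 genes, the Dox comparisons gave the following counts. In the evolving class 0 of 10 passed by edgeR, beside 2.13% of all genes. At an unadjusted p under 0.05 there were 2, Nf1 and Suz12, beside 16.7%, and DESeq2 called 0, beside 10.6%. There were 3 members higher in all 3 evolving tumours (beside 17.3% of all genes) and 3 were lower in all 3 (beside 17.6%). Suz12 was the 1 member whose libraries with Dox were all above those without (8.78% of all genes), and Ptpn2 and Cnot3 were the 2 whose libraries with Dox were all below (10.2%).

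In independent tumours 0 of 10 passed by edgeR, beside 0.0% of all genes. None had an unadjusted p under 0.05, beside 0.704%, and DESeq2 called 0, beside 0.0%. Ezh2 and Nf1 were lower in all 3 independent tumours (8.27% of all genes) and none was higher in all 3 (8.72%). No member had all libraries with Dox above (0.875% of all genes) or all below (1.07%) those without. For the difference of the Dox responses 0 of 10 passed by edgeR, beside 0.121%; 0 had an unadjusted p under 0.05, beside 9.53%, and DESeq2 called 0, beside 4.44%.

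**Figure D3:**
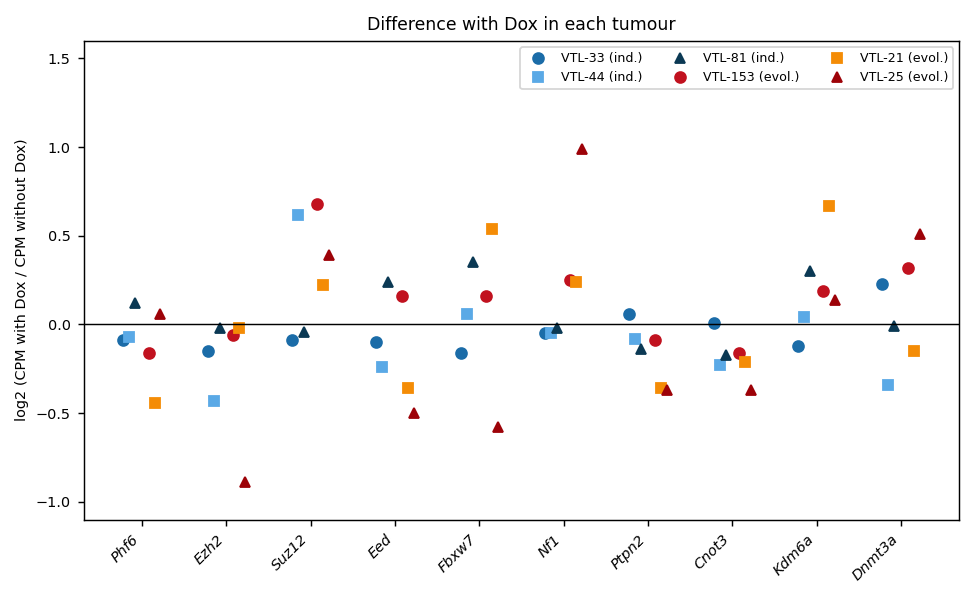
Log2 ratio of CPM with Dox to CPM without Dox for the 10 genes, each point 1 tumour, with independent tumours (blues) left of evolving tumours (reds and orange) within each gene. Suz12, Nf1 and Kdm6a lie above 0 in all evolving tumours, and VTL-25 gives both the lowest Ezh2 value (−0.89) and the highest Nf1 value (0.99).

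Between the classes, independent against dependent tumours without Dox gave 0 of 10 by edgeR, beside 0.0972% of all genes. At an unadjusted p under 0.05 there were 2, Phf6 and Ptpn2, beside 13.2%, and DESeq2 called 1, Phf6, beside 6.47%. The 4 members Phf6, Ezh2, Ptpn2 and Kdm6a were lower in every independent tumour than in both dependent ones (13.2% of all genes), and Dnmt3a was higher (14.4%). Evolving against dependent tumours gave 0 of 10 by edgeR, beside 0.0%; 0 had an unadjusted p under 0.05, beside 3.39%, and DESeq2 called 0, beside 0.523%. Phf6, Ptpn2, Kdm6a and Dnmt3a were lower in every evolving tumour (9.54% of all genes), and Eed and Cnot3 were higher (9.93%).

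Independent against evolving tumours without Dox gave 0 of 10 by edgeR, beside 0.259% of all genes. At an unadjusted p under 0.05 there were 3, Ezh2, Nf1 and Dnmt3a, beside 16.4%, and DESeq2 called 2, Ezh2 and Dnmt3a, beside 8.73%. Ezh2 was lower in every independent tumour (12.1% of all genes), and Nf1 and Dnmt3a were higher (11.4%). With Dox 0 of 10 passed by edgeR, beside 0.0%; 0 had an unadjusted p under 0.05, beside 4.74%, and DESeq2 called 0, beside 0.784%. Kdm6a was lower in every independent tumour with Dox (4.83% of all genes), and no member was higher (4.78%).

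**Figure D4:**
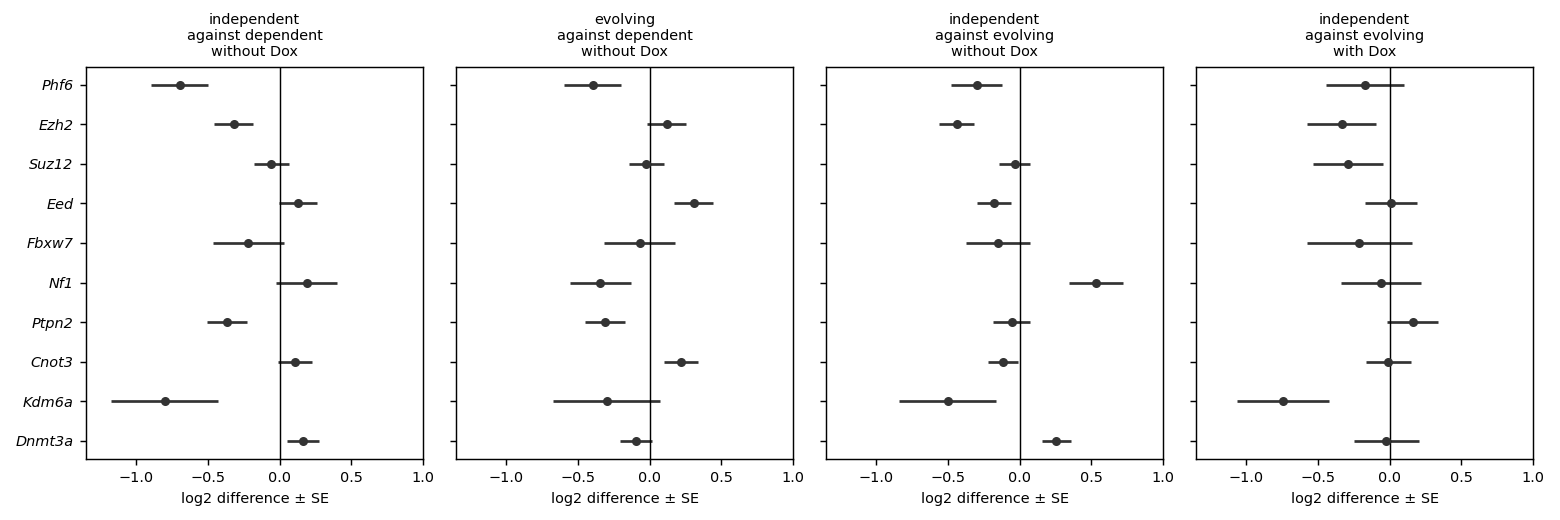
Log2 differences between tumour classes for the 10 genes, 1 panel per comparison; points are edgeR estimates and bars are 1 SE on either side. Positive values are higher in the first-named class; Kdm6a lies at −0.80 and Phf6 at −0.70 for independent against dependent tumours.

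Of a wider list of 29 T-ALL suppressors, which includes Cnot3, 28 were tested and none passed by edgeR in any comparison. For Dox in evolving tumours 3 of the 28 had an unadjusted p under 0.05, beside 16.7% of all genes. None of the 20 replication and mitosis genes passed in any comparison.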

How the data were processed

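RNA was measured in 14 libraries of 8 tumours, grouped by the class and Dox state in the labels. STAR 2.5.2b, featureCounts and the build mm10 are named in the submitters' processing notes; the annotation and the strand setting are not given in the sources used here, so reads of overlapping antisense genes cannot be told apart. The deposited values are raw counts per gene, not normalised by the authors; 42 further columns of per-sample values were not used here. Positions and exon lengths come from GENCODE M21 for the same build.

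CPM used TMM-scaled library sizes. Counts were tested in R 4.3.3 with edgeR 4.0.16 (TMM, default low-count filter with a minimum count of 10, robust quasi-likelihood fits, Benjamini-Hochberg adjustment over all genes, threshold 0.05). Dox was tested on 12 libraries with tumour as a block and a term for each class; class tests used either the 8 libraries of untreated mice or the 6 with Dox. Dox differences are with minus without, and SE is the estimate's size divided by the root of its F statistic. The tumour number in the titles pairs the libraries: deviations from the group mean correlated across genes by 0.563 to 0.716 in the 3 independent tumours and by 0.0166 (VTL-25) to 0.188 in the 3 evolving tumours.

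Alternatives were DESeq2 1.42.0, RLE size factors, no filter, no block and leaving out each tumour. Leaving out VTL-21 and VTL-81 together, for their B cell and myeloid markers, was chosen after seeing the data. The members, the lists and the naming rule (all members, with list genes past the threshold) were chosen with earlier results of these data known.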

Additional observations from a re-analysis of the deposited data

Results flagged for a closer look

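Nf1 was marked for a difference between its Dox responses in the classes. It was higher with Dox in all 3 evolving tumours, by 0.99, 0.25 and 0.24 on the log2 scale in VTL-25, VTL-153 and VTL-21. In the independent tumours VTL-33, VTL-44 and VTL-81 the values were −0.05, −0.05 and −0.02. The difference between the responses, independent minus evolving, was −0.53 (SE 0.25) and did not pass (adjusted p = 0.581 by edgeR), with a range of 0.423 to 0.952 over the alternatives.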

How the results depend on the processing

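Alternatives were run on all genes. Values under them were compared for 23 of the 70 log2 differences of members, those with the smallest p and some others given in the text. For the other 47 only the calls were counted. The 23 kept their direction under all 286 alternative values. Of these, 283 stayed on their side of the threshold, and 3 passed it, all under DESeq2: Phf6, Ezh2 and Dnmt3a. DESeq2 therefore called 1 member for independent against dependent tumours and 2 for independent against evolving tumours without Dox. Removing the tumour block changed no call of a member. Some of the 286 values could not differ from the main ones. The Dox fits and the class fit with Dox hold no dependent tumour, so leaving out VTL-19 or VTL-24 changed nothing there. Over all genes, DESeq2 called 1314 against 263 for Dox in evolving tumours, 549 against 15 for the difference of responses, 791 against 12 for independent against dependent, 64 against 0 for evolving against dependent, 1068 against 32 for independent against evolving without Dox and 94 against 0 with Dox. Without the block the first 2 counts were 73 and 1. Leaving out 1 tumour gave, in the same order, 49 to 347, 0 to 58, 2 to 73, 0 to 1, 3 to 144 and 0 to 4. Without VTL-21 and VTL-81 the difference of responses had 4 calls, and independent against evolving 1 without Dox and 2 with Dox. With the limit for a single low tumour at 0.25 times the median, 0 members were low. Members had at least 567 counts in every library, and the effects of depth and of the number of tumours were not tested. The causes of these changes were not tested.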
